A study of Mus musculus with 6 samples.

Results

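Cyp26a1, the hydroxylase that breaks down retinoic acid, and 7 genes that carry, store, make, reduce or sense retinoids were followed in mouse liver after injection of the hormones FGF15 or FGF19. The members were every probe set of the array paired with exactly 1 gene among Cyp26a1, Rbp4, Lrat, Aldh1a1, Dhrs3, Rara, Rarb and Rarg, which gave 9 probe sets of 22690 and 8 genes of the 12393 that have a probe set of their own. Each gene had 1 probe set except Rarg, which had 2. The group was chosen from the signals of Cyp26a1, which rose strongly and to different heights with the 2 hormones, so every value of Cyp26a1 is a description and carries no test.

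The liver samples came from wild-type C57Bl/6 male mice. Vehicle, FGF15 that had been purified, or recombinant FGF19 was injected into the jugular vein, and the mice had no food for the 6 h that followed. RNA of whole liver was hybridised to the Affymetrix Mouse Genome 430A 2.0 array, with 2 arrays for each of the 3 groups. Ages, protein doses and what the vehicle contained are not stated in the labels. No label ties the paired arrays to different mice, so each p-value reflects array-to-array spread that could be technical. FGF15 is a mouse hormone released by the ileum in response to bile acids, FGF19 is its human counterpart, and both lower the transcription of Cyp7a1, whose enzyme starts bile acid synthesis, in liver.

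Vitamin A reaches the liver as retinyl esters and retinol. Hepatocytes send retinol out on retinol binding protein (Rbp4), while hepatic stellate cells store it as esters made by lecithin retinol acyltransferase (Lrat). Retinol is oxidised to retinal and then, by retinaldehyde dehydrogenases such as Aldh1a1, to retinoic acid, and Dhrs3 turns retinal back into retinol. Retinoic acid binds the receptors Rara, Rarb and Rarg, which sit on DNA in pairs with retinoid X receptors, and it is cleared by Cyp26 hydroxylases. Cyp26a1 and Rarb are textbook targets of those receptors.

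Because the receptors bind repeats of a 6-base half-site, the windows from 250 bases before to 50 bases after each RefSeq transcription start (GRCm38.p6) were searched on both strands for pairs of the half-sites AGGTCA or AGTTCA or GGGTCA or GGTTCA, both in the same orientation and spaced by 1, 2 or 5 bases. All 8 genes had windows, 16 in all. A repeat with 5 bases between the half-sites was found in 1 window of Cyp26a1 and 1 window of Rarb, and no member window held a repeat with a spacer of 1 or 2 bases. The stretches of 100 bases that end just before the start site are shown for these 2 genes, because they held the repeat. Cyp26a1 carried the strong rise, while Rarb gave weak signals, of 28.1 to 45.1, so a rise of Rarb could not be judged well. Capitals mark the half-sites, and each stretch is written 5′ to 3′ on the strand of its gene.
Cyp26a1, chr19:37697708-37697807, plus strand: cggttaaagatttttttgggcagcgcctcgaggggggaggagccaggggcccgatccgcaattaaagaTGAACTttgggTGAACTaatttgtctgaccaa
Rarb, chr14:16575477-16575576, minus strand: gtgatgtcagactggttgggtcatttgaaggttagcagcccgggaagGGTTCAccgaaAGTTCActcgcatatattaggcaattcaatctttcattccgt

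In Cyp26a1 the repeat spanned bases 32 to 16 before the start and ran on the strand opposite to the gene, where it reads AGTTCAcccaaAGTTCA. In Rarb it spanned bases 53 to 37 before the start on the strand of the gene. The second half-site of the pair, AGTTCA, was the same in both genes. Repeats with a spacer of 5 were found in 32 of 32851 windows of all genes (0.0974%), repeats with a spacer of 2 in 88 (0.268%) and repeats with a spacer of 1 in 73 (0.222%). A match of these letters is not evidence that a factor was bound in these livers.

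The arrays had been scaled alike by the depositors, to a trimmed mean signal of 200, and signals are in the units of that scale. Hepatocyte markers were strong, the weakest of 8 having a median signal of 2514 over the arrays, and Cyp7a1 fell from signals of 2677 and 2572 with vehicle to 91.5 and 89.4 with FGF15 and 38.2 and 32.1 with FGF19. FGF19 array 1 stood apart in its control probe sets: its actin 3′ to 5′ ratio was 1.63, where the others had 1.30 to 1.39, and an 18S probe set read 32.3, where the others had 4.25 to 5.82. Differences are given as log2(signal + 32) with limma's standard error and n = 2 arrays per group, which understates changes of weak genes, and a probe set is said to have risen or fallen at an adjusted p under 0.05 (Benjamini-Hochberg over 16969 probe sets). Both hormone groups were compared with the same 2 vehicle arrays, so their differences are not independent of each other. RNA was from whole liver, so fewer cells of a type and less RNA per cell cannot be told apart.

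Cyp26a1 was weak with vehicle and stronger with either hormone. Vehicle arrays had signals of 149 and 115, FGF15 arrays 748 and 669.8, and FGF19 arrays 277 and 278. The 3 groups did not overlap, and FGF15 gave the highest level, FGF19 the middle level and vehicle the lowest. The group means were 132 ± 24.2, 709 ± 55.6 and 278 ± 0.713 (SD, n = 2 arrays each), so the mean signal was 5.37 times the vehicle level with FGF15 and 2.10 times with FGF19, and FGF15 stood 2.55 times above FGF19. On the log2 scale the differences were 2.18 ± 0.11 for FGF15 minus vehicle, 0.92 ± 0.11 for FGF19 minus vehicle and -1.26 ± 0.11 for FGF19 minus FGF15. Among the 16969 probe sets tested, Cyp26a1 had the log2 difference of rank 3 from the top with FGF15 and of rank 96 with FGF19. These ranks are a description, since the same values chose the gene. In all, 803 probe sets were called higher with FGF15 and 874 with FGF19, counts that hold Cyp26a1 itself, since it was part of the fit. The plot of the member signals shows these points beside those of the other genes.

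**Figure D1:**
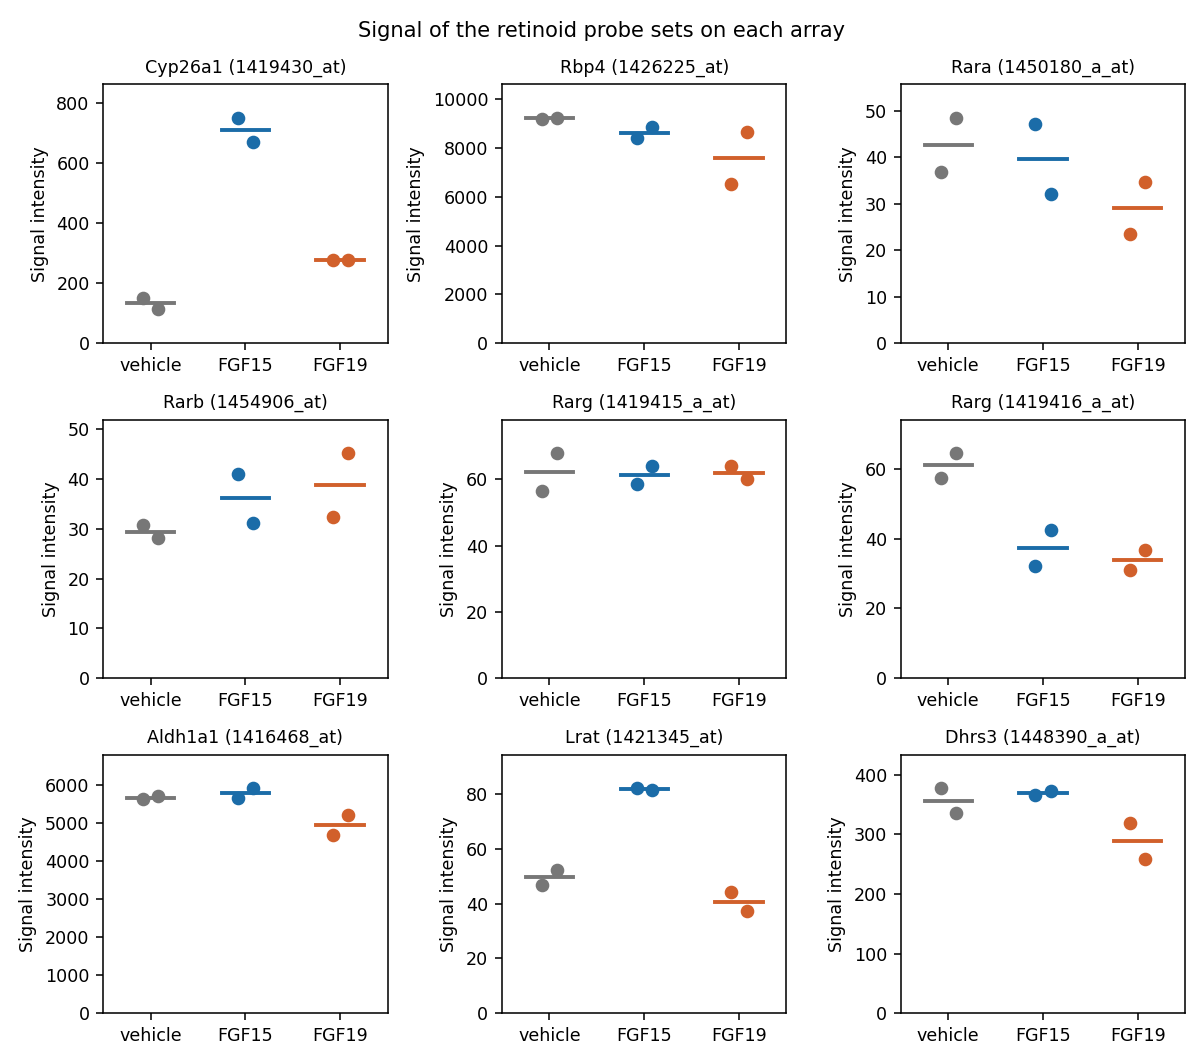
Signal intensity (linear scale, y axis from 0) of the 9 probe sets on each of the 6 arrays, by group on the x axis; points are arrays and bars are means of 2 arrays. Cyp26a1 lies at 115 to 149 with vehicle, 669.8 to 748 with FGF15 and 277 to 278 with FGF19, and Lrat is highest with FGF15, at 81.3 and 82.0.

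Among the storage and transport genes, Lrat had a pattern with the highest level in FGF15 livers. Lrat, which esterifies retinol for storage, had signals of 46.7 and 52.4 with vehicle, 82.0 and 81.3 with FGF15 and 44.1 and 37.3 with FGF19. Both FGF15 arrays lay above all other arrays, and both FGF19 arrays lay below both vehicle arrays. Lrat was lower with FGF19 than with FGF15 by a log2 difference of -0.65 ± 0.14 (limma, adjusted p = 0.037; lower on 2 of 2 arrays). Its difference with FGF15 against vehicle was 0.48 ± 0.14 (adjusted p = 0.060) and with FGF19 against vehicle -0.17 ± 0.14 (adjusted p = 0.50, 95% interval -0.48 to 0.15). The call between the hormones was fragile: its adjusted p was 0.0563 without vehicle array 1, 0.0582 without vehicle array 2, 0.152 and 0.123 without FGF15 array 1 or 2, and 0.12 and 0.166 without FGF19 array 1 or 2. It was also lost with no filter on low signals (0.104) and with the 2 groups fitted alone (0.0527). The difference with FGF15 against vehicle was called instead under quantile normalization (adjusted p = 0.0242), centring of each array on its median (0.021), cyclic loess (0.0241), a filter at the 50th percentile (0.0376) and no intensity trend (0.049).

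Lrat marks hepatic stellate cells, and no tested marker of these cells, Lrat included, passed as higher with FGF15. Of 18 tested genes of the stellate cell list, which holds Lrat itself, 0 rose and 4 fell with FGF15 (Rgs5, Col1a1, Col1a2 and Col3a1), and 0 rose and 4 fell with FGF19 (Rgs5, Col1a1, Col3a1 and Cxcl12), while Lrat and Cxcl12 were lower with FGF19 than with FGF15. With FGF15 the calls of Rgs5 and Col3a1 held in every fit without 1 array, and with FGF19 none of the 4 did. Over all 9685 genes, 5.31% rose and 6.03% fell with FGF15, and 5.8% rose and 6.67% fell with FGF19. The summed signal of the stellate cell list was 4854 and 4908 with vehicle, 4225 and 4311 with FGF15 and 4358 and 4385 with FGF19. Reln, a matrix protein of stellate cells, had signals of 355 and 319.6 with vehicle, 383 and 375 with FGF15 and 394 and 375 with FGF19. It was not called with either hormone and was named after its values were seen, so it does not stand for the list. The median log2 difference of the 18 genes was -0.15 with FGF15 and -0.10 with FGF19, beside -0.05 and -0.07 over all genes. Des, Hand2 and Lhx2, which define the lineage, were at signals of 5.11 to 34.5 on all arrays, near the cut-off for weak probe sets, so they show little here. The part of stellate cell number in the Lrat values was not tested.

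By their means, 4 genes of hepatocytes around the central vein (Axin2, Lgr5, Tbx3 and Rnf43) ordered the groups as Lrat did, with FGF15 highest and FGF19 lowest. These genes were picked out after their values were seen. Against vehicle, Tbx3 alone of the 4 passed as higher with FGF15, and all 4 passed as lower with FGF19. None of these calls against vehicle held in every fit that left out 1 array. Tbx3, a transcription factor of these cells, had signals of 176 and 172 with vehicle, 283 and 329 with FGF15 and 99 and 135 with FGF19. It was lower with FGF19 than with FGF15 by -1.19 ± 0.13 (limma, adjusted p = 8e-04), a call that held in every fit that left out 1 array. Over the 14 tested genes of the whole list, 3 rose and 1 fell with FGF15, beside 5.31% and 6.03% of all 9685 genes. With FGF19, 1 rose and 6 fell, beside 5.8% and 6.67%. Other genes of the list did not follow Lrat: Lhpp rose with both hormones, and Cyp7a1 was highest with vehicle. Of the 14 genes, 5 were lower with FGF19 than with FGF15 (Axin2, Lgr5, Tbx3, Cyp7a1 and Rnf43) and 0 were higher. Over all 9685 genes, 1.59% were lower and 2.16% higher. Axin2, Lgr5 and Rnf43 respond to Wnt signals, and their calls held in 2, 0 and 0 of the 6 fits without 1 array, with adjusted p from 0.0645 to 0.23 where they were lost. The summed signal of the whole list was highest with vehicle instead, at 33103 and 34069, against 29116 and 32432 with FGF15 and 24807 and 29613 with FGF19. The part of these genes or cells in the Lrat and Aldh1a1 values was not tested.

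**Figure D2:**
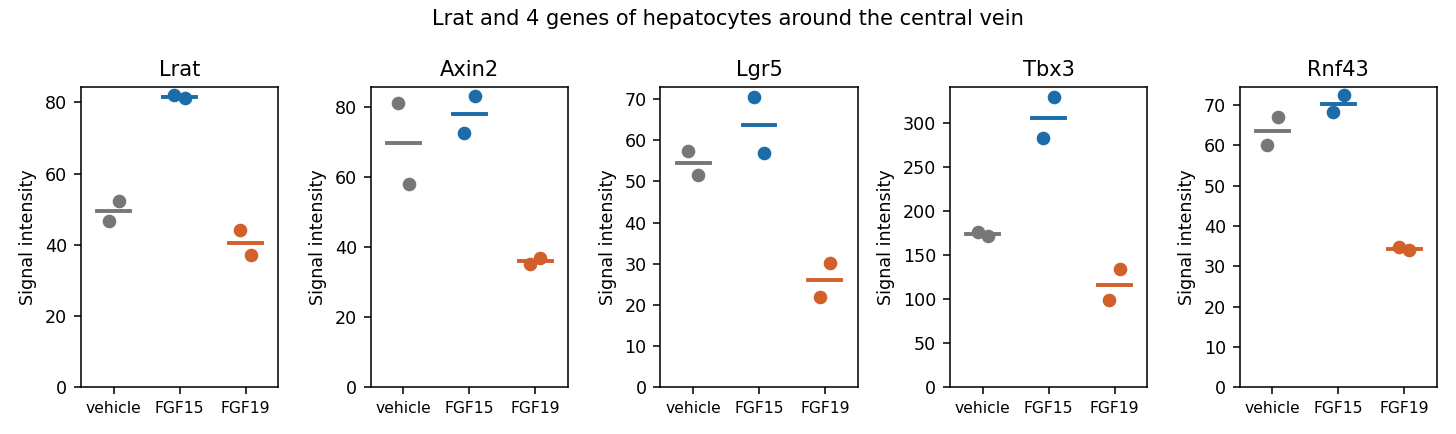
Signal intensity (linear scale, y axes from 0) of Lrat and of 4 genes of hepatocytes around the central vein on each array, by group; points are arrays and bars are means of 2 arrays. The 4 genes were picked out after their values were seen. All 5 genes have their 2 FGF19 arrays below their 2 FGF15 arrays, with Tbx3 at 99 and 135 against 283 and 329.

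Rbp4, the retinol carrier that hepatocytes secrete, was among the strongest signals, and its difference with FGF19 rested on 1 array. Its signals were 9209.6 and 9224 with vehicle, 8399 and 8852 with FGF15 and 6540.3 and 8639 with FGF19. Both FGF15 arrays and both FGF19 arrays lay below the vehicle arrays, and FGF19 array 1 was the lowest of the 6. The log2 differences were -0.10 ± 0.11 with FGF15 (adjusted p = 0.66, 95% interval -0.35 to 0.16), -0.29 ± 0.11 with FGF19 (adjusted p = 0.13) and -0.20 ± 0.11 between the hormones (adjusted p = 0.47). Without FGF19 array 2, so that only array 1 stood for FGF19, Rbp4 was lower with FGF19 than with vehicle by -0.49 (adjusted p = 0.00133) and lower than with FGF15 by -0.40 (adjusted p = 0.00873); without FGF19 array 1 these differences were -0.093 (adjusted p = 0.386) and 0.0027 (adjusted p = 0.993). The summed signal of 8 hepatocyte markers was also lowest on that array, at 56241 against 69390 on FGF19 array 2, 62192 and 67565 with FGF15 and 73008 and 71900 with vehicle.

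Of the enzymes that set the balance of retinal, neither Aldh1a1 nor Dhrs3 changed at the threshold. Aldh1a1, which oxidises retinal to retinoic acid, had signals of 5647 and 5706 with vehicle, 5654 and 5920.2 with FGF15 and 4698 and 5226 with FGF19. Its FGF19 arrays lay below all others, with log2 differences of -0.19 ± 0.07 against vehicle (adjusted p = 0.12) and -0.22 ± 0.07 against FGF15 (adjusted p = 0.17). Without FGF19 array 2 they were -0.27 and -0.30 and passed the threshold (adjusted p = 0.0224 and 0.0303), and without FGF19 array 1 they were -0.12 and -0.15 (adjusted p = 0.281 and 0.335). The second also passed with quantile normalization (0.0278). Dhrs3, which reduces retinal to retinol and is itself known to respond to retinoic acid in other tissues, had signals of 377 and 336 with vehicle, 366 and 372 with FGF15 and 319 and 259 with FGF19. Here too the FGF19 arrays were the lowest, with log2 differences of -0.28 ± 0.10 against vehicle (adjusted p = 0.12) and -0.33 ± 0.10 against FGF15 (adjusted p = 0.15). Those of Dhrs3 were -0.14 and -0.19 without FGF19 array 2 (adjusted p = 0.491 and 0.499) and -0.41 and -0.46 without FGF19 array 1 (adjusted p = 0.0633 and 0.0923). With FGF15 the differences from vehicle were 0.03 ± 0.07 for Aldh1a1 (95% interval -0.14 to 0.19) and 0.05 ± 0.10 for Dhrs3 (95% interval -0.19 to 0.28).

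The retinoic acid receptors were weak on these arrays, near the offset of 32 for Rara and Rarb. Rara had signals of 36.8 and 48.4 with vehicle, 47.2 and 32 with FGF15 and 23.5 and 34.6 with FGF19. Rarb, which carries the repeat printed above, had signals of 30.7 and 28.1 with vehicle, 40.9 and 31.2 with FGF15 and 32.4 and 45.1 with FGF19. The arrays of the vehicle group lay below those of both hormone groups for Rarb, by small steps, and the groups overlapped for Rara with FGF15. The log2 differences of Rarb were 0.15 ± 0.17 with FGF15 (adjusted p = 0.66, 95% interval -0.24 to 0.53) and 0.20 ± 0.17 with FGF19 (adjusted p = 0.50, 95% interval -0.18 to 0.58). Those of Rara were -0.06 ± 0.18 (adjusted p = 0.88, 95% interval -0.47 to 0.35) and -0.29 ± 0.18 (adjusted p = 0.35, 95% interval -0.70 to 0.12).

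The 2 probe sets of Rarg, the third receptor, disagreed. Probe set 1419415_a_at had signals of 56.3 and 67.8 with vehicle, 58.4 and 64.1 with FGF15 and 64 and 60.0 with FGF19, which overlapped in all groups. Probe set 1419416_a_at had signals of 57.5 and 64.5 with vehicle, 32.2 and 42.5 with FGF15 and 31.0 and 36.8 with FGF19, so that all 4 hormone arrays lay below both vehicle arrays. Its log2 differences were -0.43 ± 0.16 with FGF15 (adjusted p = 0.13) and -0.50 ± 0.16 with FGF19 (adjusted p = 0.072), against -0.01 ± 0.14 and 0.00 ± 0.14 for the first probe set. Neither reached the threshold, and no direction can be given for the gene.

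Counted over the 8 probe sets other than Cyp26a1, 0 were called with FGF15 by limma, beside 10.5% of all probe sets tested, 0 with FGF19, beside 11.5%, and 1 between the hormones, beside 3.31%. At an unadjusted p under 0.05 there were 2 with FGF15 (Lrat higher, Rarg 1419416_a_at lower), beside 24.6% of all probe sets, 4 with FGF19 (Rarg 1419416_a_at, Aldh1a1, Dhrs3 and Rbp4, all lower), beside 26.5%, and 3 between the hormones (Lrat, Aldh1a1 and Dhrs3, all lower with FGF19), beside 15.4%. The arrays of the 2 groups did not overlap for 4 of the 8 probe sets with FGF15, beside 54% of all probe sets, for 7 with FGF19, beside 57.3%, and for 3 between the hormones, beside 44.6%, so with 2 arrays a group separation alone says little. The median log2 difference of the 8 was 0.01 with FGF15, -0.24 with FGF19 and -0.21 between the hormones, beside medians over all probe sets of -0.05, -0.07 and -0.02. Centring each array on its median instead shifted all differences up by 0.12 with FGF15 and 0.15 with FGF19 and moved the calls over all probe sets from 803 higher and 986 lower to 1476 and 571 with FGF15, and from 874 and 1075 to 1818 and 507 with FGF19. Under that centring, as under quantile normalization, the sign of the small difference of Rbp4 with FGF15 turned positive.

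**Figure D3:**
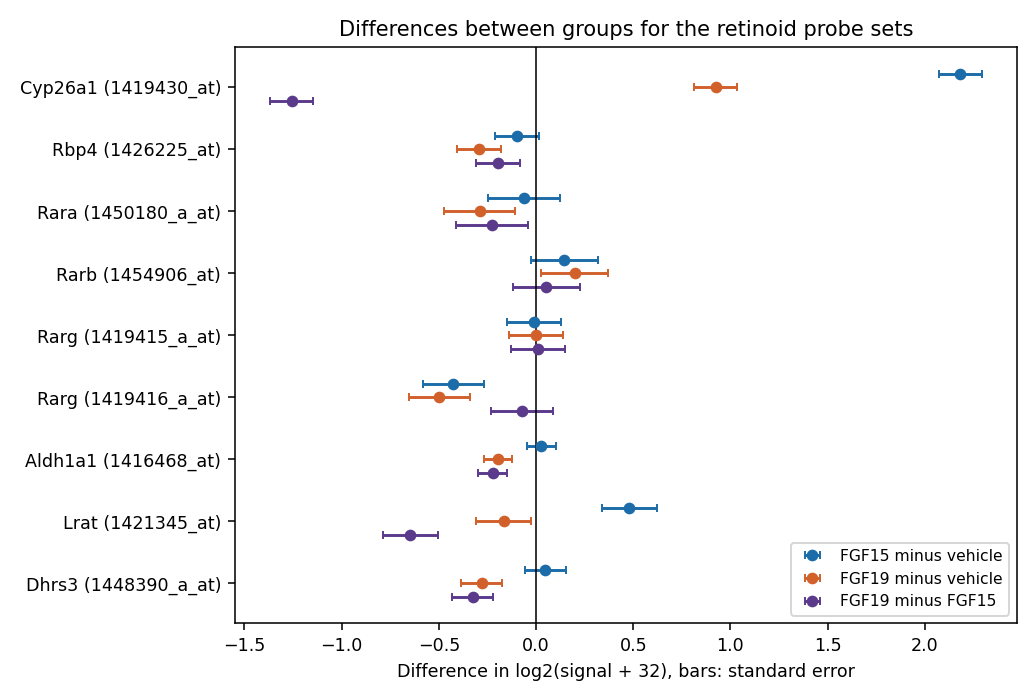
Differences in log2(signal + 32) for the 9 probe sets (x axis) in the 3 comparisons; points are differences of group means and bars are limma standard errors, n = 2 arrays per group. Cyp26a1 lies at 2.18, 0.92 and -1.26, and the other probe sets lie between -0.65 and 0.48.

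Beyond the 8 members, 6 lists of genes tied to retinoids held 125 genes, of which 84 could be tested, each by its probe set of highest mean signal. The last list held genes that retinoic acid induces in other cells, and the others held genes by their role in retinoid handling. With FGF15, 11 of the 84 rose and 10 fell (13.1% and 11.9%, beside 5.31% and 6.03% of all 9685 genes). With FGF19, 16 rose and 9 fell (19% and 10.7%, beside 5.8% and 6.67%). Between the hormones, 9 were higher with FGF19 and 3 lower (10.7% and 3.57%, beside 2.16% and 1.59%). The list of genes induced by retinoic acid in other cells gave 3 of the 11 that rose with FGF15 and 6 of the 16 that rose with FGF19. It also gave 6 of the 9 that were higher with FGF19 than with FGF15, so these shares are not those of retinoid handling alone. Many of the 84 genes also act in lipid or drug metabolism, and the lists were drawn up with earlier results of these arrays known, so the shares are a description. The counts of falling genes depended on single arrays: with FGF15 they were 4 without either vehicle array and 6 without FGF15 array 2, with FGF19 4 without either vehicle array, and between the hormones 6 without FGF19 array 2. The median log2 difference of the 84 genes was 0.01 with FGF15, -0.02 with FGF19 and 0.01 between the hormones. The shares of all 9685 genes given here also stand beside the counts of each list below.

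Of 7 tested genes for uptake, binding and transport of retinoids, 1 passed as higher and 3 as lower with FGF15, and 1 as higher and 2 as lower with FGF19. Fabp5, a binding protein that can carry retinoic acid as well as fatty acids, fell most: its signals were 2136 and 2082 with vehicle, 650.1 and 725 with FGF15 and 929 and 936 with FGF19, log2 differences of -1.58 ± 0.07 and -1.15 ± 0.07 (adjusted p = 1.9e-06 and 1.1e-05). It was higher with FGF19 than with FGF15 by 0.43 ± 0.07 (adjusted p = 0.01; 0.0903 without FGF15 array 1). A second probe set of Fabp5 gave 0.50 ± 0.13 between the hormones and was not called (limma, adjusted p = 0.067). Cd36, which takes up lipids, rose with both hormones by 1.33 ± 0.08. Other probe sets of Cd36 gave 1.19 and 0.73 with FGF15 and 1.16 and 0.79 with FGF19. Scarb1, a receptor that takes up carotenoids with lipoproteins, fell with FGF15 by 0.56 on the log2 scale (adjusted p = 0.0014); its fall with FGF19 by 0.30 (adjusted p = 0.034) was lost without vehicle array 1 (0.133), vehicle array 2 (0.17) or FGF19 array 2 (0.139), and another of its probe sets gave 0.03. Lpl, which hydrolyses lipoprotein triglycerides and retinyl esters, fell with FGF15 by 0.86 on the log2 scale (adjusted p = 0.0039) and differed by -0.33 ± 0.14 with FGF19 (adjusted p = 0.16). Rbp2, Rbp7, Crabp1, Crabp2, Rlbp1, Stra6 and Lrp2 lay below the filter on low signals.

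Among 10 tested genes for synthesis and hydrolysis of retinyl esters, 2 passed as higher and 1 as lower with FGF15, and 4 as higher and 1 as lower with FGF19. Ces1d, a carboxylesterase of the liver, rose from signals of 1396 and 1283 with vehicle to 2062 and 2081 with FGF15 and 2509 and 2376 with FGF19. Its log2 differences were 0.62 ± 0.07 and 0.85 ± 0.07 (adjusted p = 0.00047 and 6.2e-05), and of its other probe sets 1435370_a_at rose as well while 1435371_x_at gave -0.20 ± 0.37 and -0.52 ± 0.37. Ces2e, a related esterase, rose by 0.39 ± 0.07 with FGF15 (adjusted p = 0.008; 0.0691 and 0.0534 without vehicle array 1 or 2) and by 0.64 ± 0.07 with FGF19 (adjusted p = 0.00048). The remaining calls were small and were lost without single arrays. Ces1g differed by 0.31 ± 0.08 with FGF19 (adjusted p = 0.027; 0.136, 0.122 and 0.134 without vehicle array 1, vehicle array 2 or FGF19 array 1). Aadac differed by 0.23 ± 0.06 with FGF19 (adjusted p = 0.042; 0.0552 to 0.233 without any array but FGF19 array 1). The lipases Pnpla2, with FGF15, and Lipe, with FGF19, were lower by log2 differences of -0.36 ± 0.09 (adjusted p = 0.028; 0.151, 0.117 and 0.163 without vehicle array 1, vehicle array 2 or FGF15 array 2) and -0.46 ± 0.13 (adjusted p = 0.043; 0.0518 to 0.188 without any 1 of the 6 arrays).

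Of 19 tested genes for oxidation and reduction of retinol, retinal and carotenoids, 3 rose and 1 fell with each hormone. Rdh16, a retinol dehydrogenase of hepatocytes, rose from signals of 161 and 148 with vehicle to 339 and 359 with FGF15 and 393 and 427 with FGF19, by 1.03 ± 0.09 and 1.25 ± 0.09 on the log2 scale (adjusted p = 9.5e-05 and 2.6e-05). Aox1, an aldehyde oxidase that can act on retinal, rose from 426 and 429.8 to 614 and 645 with FGF15 and 858 and 821 with FGF19, by 0.52 ± 0.07 and 0.92 ± 0.07 (adjusted p = 0.0014 and 4.3e-05). For both genes the 3 groups did not overlap, with vehicle lowest and FGF19 highest, the reverse of the order of the hormones for Cyp26a1. Aox1 was higher with FGF19 than with FGF15 by 0.40 ± 0.07 (adjusted p = 0.013; 0.0957 without FGF15 array 1 and 0.0923 without FGF19 array 1), and for Rdh16 that difference was 0.21 ± 0.09 (adjusted p = 0.28).

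Rdh9 and Adh4 changed with FGF19 and differed between the hormones. Rdh9, another retinol dehydrogenase, whose probe set can also detect close relatives, had signals of 504 and 558 with vehicle, 642 and 551 with FGF15 and 874 and 831 with FGF19. It rose with FGF19 by 0.65 ± 0.09 (adjusted p = 0.0016) and was higher with FGF19 than with FGF15 by 0.50 ± 0.09 (adjusted p = 0.014; 0.0892 without FGF15 array 2 and 0.109 without FGF19 array 1). Adh4, an alcohol dehydrogenase that oxidises retinol, had signals of 726 and 769 with vehicle, 718 and 685.7 with FGF15 and 502 and 511 with FGF19. It fell with FGF19 by 0.53 on the log2 scale (adjusted p = 0.0014) and was lower with FGF19 than with FGF15 by -0.45 ± 0.07 (adjusted p = 0.0074; 0.0608 without FGF15 array 1). Dhrs4, a retinal reductase, and Bco1, which cleaves beta-carotene, differed with FGF15 by 0.31 ± 0.07 (adjusted p = 0.025) and -0.65 ± 0.15 (adjusted p = 0.022). Both calls were lost without vehicle array 1, vehicle array 2 or FGF15 array 2, at adjusted p of 0.165, 0.0979 and 0.158 for Dhrs4 and 0.112, 0.0998 and 0.12 for Bco1; a second probe set of Dhrs4 passed with both hormones, at 0.43 ± 0.07 and 0.40 ± 0.07. Rdh1, Rdh12, Aldh1a2, Aldh1a3 and Rpe65 lay below the filter, so Aldh1a1 was the one of the 3 retinaldehyde dehydrogenases Aldh1a1, Aldh1a2 and Aldh1a3 that could be tested.

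Among 11 tested genes for hydroxylation and conjugation of retinoic acid, 1 passed as higher and 1 as lower with FGF15, and 1 as higher and 2 as lower with FGF19. Cyp4a14, a fatty acid hydroxylase known as a target of Ppara, rose from signals of 504 and 535 with vehicle to 2092 and 2159.9 with FGF15 and 2079 and 2036 with FGF19, by 1.97 ± 0.07 and 1.92 ± 0.07 (adjusted p = 3.1e-07 and 2.2e-07). The difference between the hormones was -0.05 ± 0.07 (adjusted p = 0.80, 95% interval -0.19 to 0.10), where that of Cyp26a1 was -1.26. Ugt2b1, a glucuronosyltransferase, fell by 0.39 and 0.47 on the log2 scale (adjusted p = 0.0089 and 0.0034), and its call with FGF15 was lost in all 6 fits without 1 array except those without FGF19 array 1 or 2, at 0.0543 to 0.0832. Cyp1a2 fell with FGF19 by 0.28 (adjusted p = 0.018; 0.116 and 0.141 without vehicle array 1 or 2). No probe set was paired with Cyp26b1 or Cyp26c1 alone, so Cyp26a1 was the one Cyp26 gene followed.

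Of 19 tested partners and cofactors of the retinoid receptors, 1 passed as higher and 1 as lower with FGF15, and 1 as higher and 2 as lower with FGF19. Over all 9685 genes the shares were 5.31% and 6.03% with FGF15 and 5.8% and 6.67% with FGF19, so these counts say little about the list. Nr0b2 (SHP), a repressor that FGF15 and bile acids act through, rose from 120.3 and 116 with vehicle to 269 and 274 with FGF15 and 284 and 263 with FGF19, by 1.02 ± 0.09 and 1.03 ± 0.09 (adjusted p = 0.00012 and 1e-04). Nr1h4 (FXR), the bile acid receptor and a partner of Rxra, fell with FGF19 by 0.87 on the log2 scale (adjusted p = 0.00012) and was lower with FGF19 than with FGF15 by -0.58 ± 0.08 (adjusted p = 0.0032). Its fall with FGF15 by 0.29 (adjusted p = 0.045) was lost without either vehicle array or either FGF15 array (adjusted p from 0.129 to 0.202). Nr2f2 differed by -0.45 ± 0.13 with FGF19 (adjusted p = 0.047), a call lost without either vehicle array or either FGF19 array (0.0732 to 0.241), and its difference with FGF15 was -0.34 ± 0.13 (adjusted p = 0.13). Of its other probe sets, 1416160_at gave -0.34 ± 0.21 with FGF15 and -0.43 ± 0.21 with FGF19, and 1416158_at gave 0.24 ± 0.11 and -0.21 ± 0.11. Rxra, the main retinoid X receptor of liver, had signals of 918 and 1109.5 with vehicle, 1024 and 994 with FGF15 and 931 and 897 with FGF19, with differences of 0.00 ± 0.09 and -0.14 ± 0.09.

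The last list held genes that retinoic acid induces in other cells, most of which also answer to growth factor or stress signals. Of 19 tested, 3 passed as higher and 3 as lower with FGF15, and 6 as higher and 1 as lower with FGF19; 6 were higher with FGF19 than with FGF15 and 1 was lower. Egr1, an immediate early gene of growth factor signals, had signals of 85.1 and 108 with vehicle, 315 and 321 with FGF15 and 2607 and 2642 with FGF19, and was higher with FGF19 than with FGF15 by 2.92 ± 0.09 (adjusted p = 3.7e-07). Btg2, an antiproliferative gene, stood at 157 and 158 with vehicle, 171 and 164 with FGF15 and 704 and 730.3 with FGF19, so it rose with FGF19 by 1.98 ± 0.08 (adjusted p = 8.1e-07). Cdkn1a (p21) went in opposite directions, from 202 and 217 with vehicle to 84.6 and 77.9 with FGF15 (-1.09 ± 0.10, adjusted p = 9.8e-05) and 383 and 404 with FGF19 (0.82 ± 0.10, adjusted p = 6e-04); its second probe set, 1421679_a_at, gave 0.18 ± 0.13 with FGF19. Dusp1, a phosphatase of MAP kinases, rose with FGF19 by 0.62 ± 0.09 (adjusted p = 0.0023). Zbtb16 differed by -0.54 ± 0.11 with FGF15 (adjusted p = 0.014; 0.1, 0.0546 and 0.0628 without vehicle array 1, vehicle array 2 or FGF15 array 1) and by 0.50 ± 0.11 with FGF19 (adjusted p = 0.019; 0.073, 0.107 and 0.134 without vehicle array 1, vehicle array 2 or FGF19 array 1), and its second probe set gave 0.12 ± 0.14 with FGF19. Plin2, a lipid droplet protein, rose from 2359 and 2264 to 4472 and 4581 with FGF15 and 4841 and 5372 with FGF19, by 0.96 ± 0.07 and 1.13 ± 0.07 (adjusted p = 3.6e-05 and 1.2e-05). Egr1, Btg2, Dusp1 and Cdkn1a were highest with FGF19, while Cyp26a1 was highest with FGF15. Foxa1 was the 1 gene of this list lower with FGF19 than with FGF15, by log2 differences of -0.75 to -0.62 with 1 array left out. That call held in 5 of the 6 such fits. Foxa1 passed as higher with FGF15 against vehicle, a call lost in every fit without 1 array. Tgm2 passed as lower with FGF15, at -0.29 to -0.26 with 1 array left out, a call that held in 2 of the 6 fits. It was higher with FGF19 than with FGF15, at 0.36 to 0.39, a call that held in 4 of the 6.

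**Figure D4:**
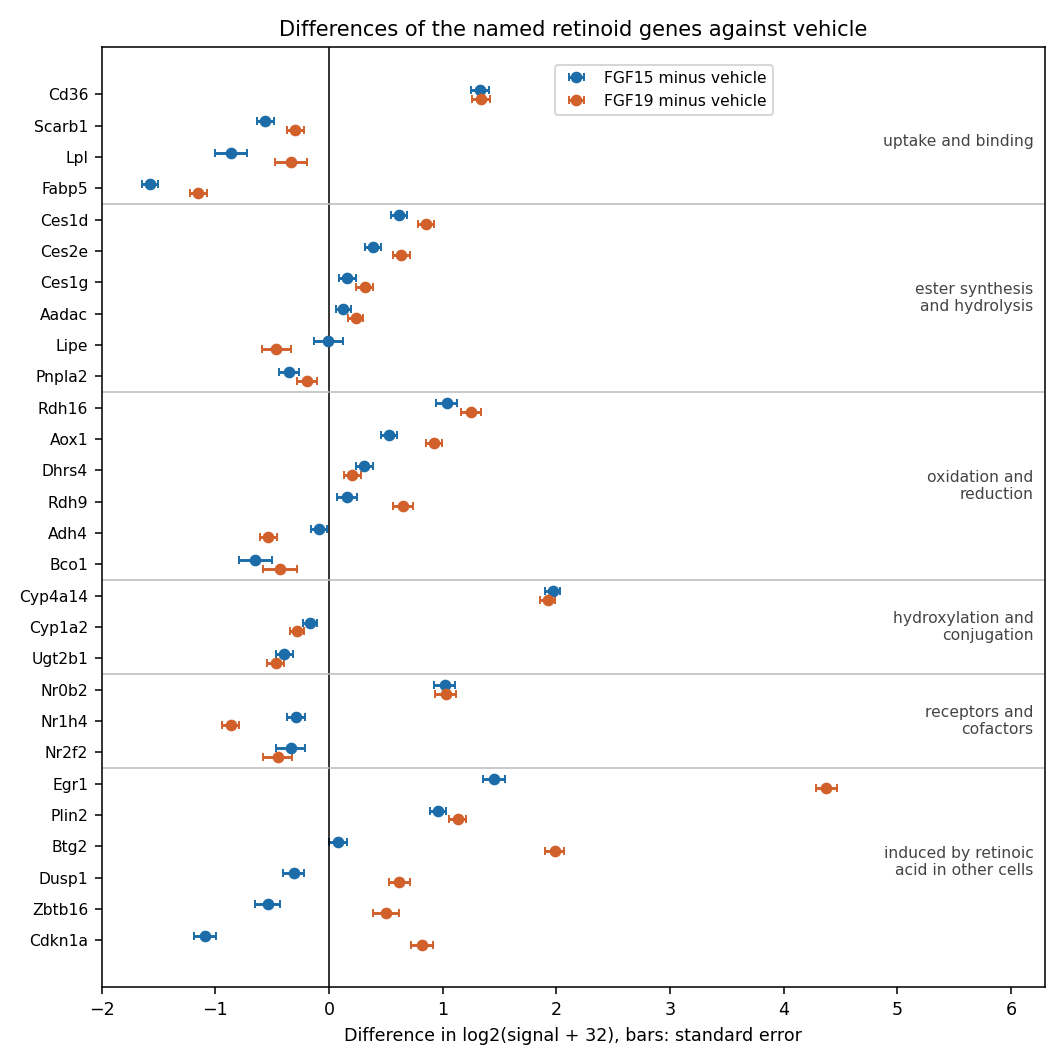
Differences from vehicle in log2(signal + 32) with FGF15 (blue) and FGF19 (orange) for the 28 genes outside the members that the naming rule took from the 6 role lists. Bars are limma standard errors, n = 2 arrays per group, and grey lines separate the 6 lists. Fabp5 lies at -1.58 and -1.15, Rdh16 at 1.03 and 1.25, and Egr1 at 1.45 and 4.37.

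The genes whose profile over the 6 arrays was nearest to that of Cyp26a1 were found by the root mean square difference in log2(signal + 32) after subtracting each probe set's vehicle mean, over 15539 probe sets with 1 gene that passed the filter. The nearest was Acot3, a peroxisomal acyl-CoA thioesterase, at 0.17. Its signals were 48.3 and 38.1 with vehicle, 379 and 265 with FGF15 and 144 and 122 with FGF19. Its probe set can also detect close relatives. Next came Vnn1, a pantetheinase, at 0.36; Rgs16, a regulator of G protein signals, at 0.40; Sdf2l1, an endoplasmic reticulum protein, at 0.45; and Cyp2b10, a drug-metabolising cytochrome P450, at 0.46. Pearson's r with Cyp26a1 over the 6 arrays ran from 0.988 for Acot3 to 0.868 for Cyp2b10, points that share 3 groups of 2 arrays.

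Acot3 shared with Cyp26a1 the wide gap between the hormones. The log2 difference of FGF19 minus FGF15 was -1.08 ± 0.16 for Acot3, beside -1.26 ± 0.11 for Cyp26a1, and -0.41 ± 0.08 for Vnn1, -0.30 ± 0.12 for Rgs16, -0.24 ± 0.10 for Sdf2l1 and -0.18 ± 0.08 for Cyp2b10. All 5 genes had both FGF15 arrays above both FGF19 arrays and both FGF19 arrays above the vehicle arrays. The rule of likeness selected that order, so it carries no test.

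**Figure D5:**
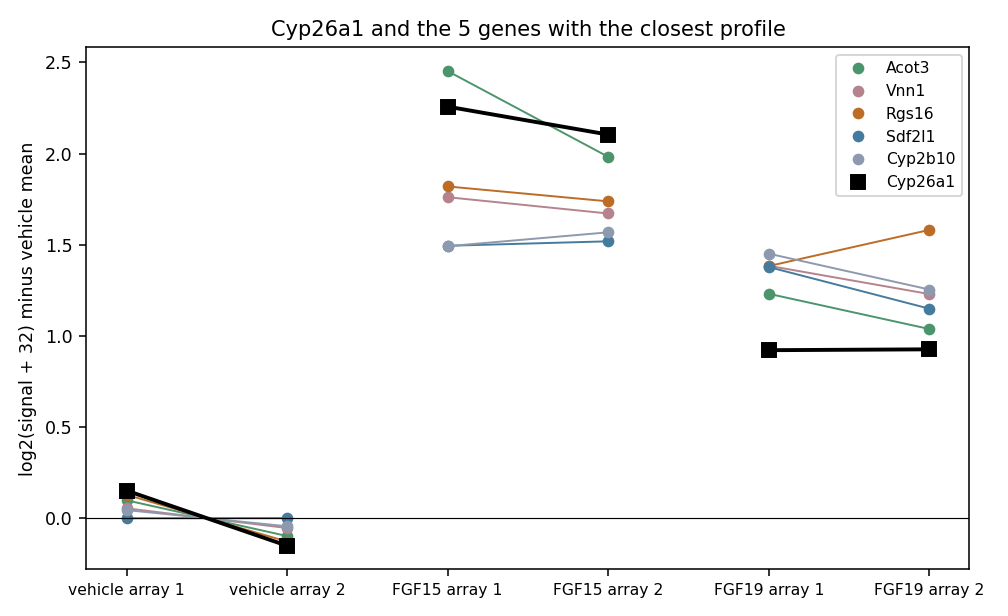
log2(signal + 32) minus the vehicle mean of each gene (y axis) on the 6 arrays (x axis) for Cyp26a1 (black squares) and the 5 genes with the closest profile; lines join the 2 arrays of a group and have no order. Cyp26a1 and Acot3 fall by 1.26 and 1.08 from FGF15 to FGF19, the other 4 genes by 0.18 to 0.41.

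The repeat found before the start of Cyp26a1 did not mark a group of genes that could be followed here. Of 31 genes with a spacer of 5 in a window, 6 had a probe set of their own and 4 passed the filter on low signals: Cyp26a1, Rarb, Blvrb and Ppbp. Rarb differed by 0.15 with FGF15 and 0.20 with FGF19. Blvrb, a biliverdin reductase, differed by 0.13 ± 0.10 with FGF15 (adjusted p = 0.46) and 0.36 ± 0.10 with FGF19 (adjusted p = 0.041; called in 2 of 6 fits without 1 array, up to 0.211). Ppbp, a platelet chemokine, differed by -0.37 ± 0.19 (adjusted p = 0.26) and -0.68 ± 0.19 (adjusted p = 0.045; called in 0 of the 6, from 0.0502 to 0.214). With 4 genes, 1 of which chose the question, no share is read from this.

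The other cell types of the liver differed between groups as follows, beside shares of all 9685 genes. With FGF15 5.31% of these rose and 6.03% fell, and with FGF19 5.8% rose and 6.67% fell. Between the hormones 2.16% were higher with FGF19 and 1.59% lower. The 12 tested genes of the Kupffer cell and macrophage list included 10 that fell with FGF15, 10 that fell with FGF19 and 0 that rose with either; their summed signal was 6762 and 6681 with vehicle, 3693 and 3791 with FGF15 and 3697 and 3658 with FGF19. Of 8 hepatocyte markers, 1 fell (Tat) with FGF15, 0 changed with FGF19, and 0 rose with either. Of 10 markers of hepatocytes around the portal vein, 4 were lower with FGF15 (Pck1, G6pc, Cdh1 and Aldh1b1), 6 were lower with FGF19 (these with Cyp2f2 and Ctsc), and 0 rose with either. With FGF15, 3 of 14 markers of hepatocytes around the central vein rose (Tbx3, Lect2 and Lhpp) and 1 fell (Cyp7a1), and with FGF19 1 rose (Lhpp) and 6 fell. Of 12 endothelial markers 1 fell (Lyve1) with FGF15 and 0 changed with FGF19. Of the tested markers of bile duct cells (3) and lymphocytes (6), 0 changed with either hormone; of 2 erythroid markers 1 (Alas2) rose with FGF19 and of 2 pancreas markers 1 (Cela1) fell. Of the 24 marker calls with FGF15 16 held in every fit without 1 array, 8 of them for macrophages, and of the 29 with FGF19 11 did, again 8 for macrophages. The summed signal of 6 bile duct markers was 110.3 to 147 and that of 9 lymphocyte markers 89.5 to 165 on single arrays. Between the hormones, 2 of the 12 macrophage markers were higher with FGF19 than with FGF15, Marco by 1.01 ± 0.15 (adjusted p = 0.0054; 0.0678 without FGF19 array 1) and Mpeg1 by 0.51 ± 0.07 (adjusted p = 0.0047), and 0 were lower. The part of these markers in the values of Cyp26a1 and the other genes was not tested.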

How the data were processed

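Biotin-labelled RNA of whole liver was measured on 6 Affymetrix arrays. The deposited values were signal intensities on a linear scale, 1 per probe set and array, which the authors had scaled to a trimmed mean of 200, per the values themselves; no label names the software that summarised probes. Of 22690 probe sets, 64 were controls, and the platform annotation paired 20380 with 1 gene, 691 with several and 1555 with none; Entrez identifiers gave the names of 20351, and the platform symbol was used for 29.

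Signals were converted to log2(signal + 32). Probe sets above the 25th percentile of mean log2 value (a signal of about 14.0), 16969 in all, were fitted with limma 3.58.1 in R 4.3.3 (lmFit, eBayes with intensity trend) in a single model of 6 arrays with group as its only term. Tests were two-sided, and adjusted p-values are limma's with Benjamini-Hochberg adjustment over all probe sets tested. The number of arrays limits the precision, and the median standard error was 0.14. Lists count each gene by its probe set of highest mean, over 9685 genes. Cyp26a1 was part of the fit, but its p-values are not read. Python 3.11.15 with matplotlib 3.10.9 drew the figures.

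The members and lists were chosen with earlier results of these data known. The lists were the 6 retinoid lists and 10 marker lists. Named genes were all members, from each retinoid list up to 6 genes that passed with either hormone by smallest p together with genes below the filter, and the 5 genes with the profile closest to Cyp26a1. Marker genes, Foxa1, Tgm2, Rxra, Reln, Blvrb and Ppbp were named outside that rule, after their values were seen. Alternatives changed the offset, the normalization, the filter, the probe sets per gene, the prior, the arrays in the fit, array weights and a replicate block. Replicate numbers came from the titles. Promoter windows and their coordinates are from RefSeq (GRCm38.p6); the array files name no build, and other coordinates are not used here.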

Additional observations from a re-analysis of the deposited data

Results flagged for a closer look

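By limma's test of FGF19 minus FGF15 over 2 arrays a group, the levels with the 2 hormones differed for 11 genes. These were members or genes that the naming rule took from the 6 retinoid lists. That rule took genes that had passed against vehicle on the same hormone arrays, so the count of 11 is a description. Foxa1 and Tgm2, named outside that rule, are not counted. On the log2 scale the differences were -0.65 for Lrat (adjusted p = 0.037), -0.45 for Adh4 (adjusted p = 0.0074), 0.40 for Aox1 (adjusted p = 0.013), 1.91 for Btg2 (adjusted p = 3.6e-06), 1.91 for Cdkn1a (adjusted p = 8.9e-06) and 0.93 for Dusp1 (adjusted p = 0.00045). They were 2.92 for Egr1 (adjusted p = 3.7e-07), 0.43 for Fabp5 (adjusted p = 0.01), -0.58 for Nr1h4 (adjusted p = 0.0032), 0.50 for Rdh9 (adjusted p = 0.014) and 1.04 for Zbtb16 (adjusted p = 0.00079). Of the cell type markers 12 differed as well: Cxcl12 by -0.32 (adjusted p = 0.038), Axin2 by -0.69 (adjusted p = 0.045), Lgr5 by -0.72 (adjusted p = 0.04), Tbx3 by -1.19 (adjusted p = 8e-04), Cyp7a1 by -0.87 (adjusted p = 0.00061) and Rnf43 by -0.62 (adjusted p = 0.042). The others were Ctsc at -0.33 (adjusted p = 0.021), Tat at 0.90 (adjusted p = 0.00035), Marco at 1.01 (adjusted p = 0.0054), Mpeg1 at 0.51 (adjusted p = 0.0047), Lyve1 at 0.40 (adjusted p = 0.046) and Cela1 at -0.47 (adjusted p = 0.018). Cyp26a1, at -1.26, and the 5 genes with the profile closest to it are left out of these counts because their response chose them. Over all 9685 genes, 2.16% were higher with FGF19 than with FGF15 and 1.59% were lower. Those genes were not selected by a call against vehicle, so the count of 11 is not read against these shares. With Lrat counted there were 13 marker calls between the hormones, and 4 held in every fit without 1 array (Tbx3, Cyp7a1, Tat and Mpeg1).

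In the control probe sets, which no comparison used, the 18S ribosomal RNA probe set M read 32.3 on FGF19 array 1, against 5.44 and 5.80 on the vehicle arrays. The 18S sets 3 and 5 differed less. They read 31.2 and 24.4 on FGF19 array 1, 19.1 and 12.9 on vehicle array 1, and 20.65 and 9.03 on vehicle array 2. The pyruvate carboxylase 3′ to 5′ ratio was 3.375 on FGF19 array 1 and 2.27 to 2.73 on the other arrays. The differences of Rbp4, Aldh1a1 and Dhrs3 with FGF19 were given with and without FGF19 array 1.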

How the results depend on the processing

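The call count of the 8 probe sets other than Cyp26a1 with FGF15 went from 0 to 1 (Lrat) under quantile normalization, centring, cyclic loess, the 50th percentile filter and no intensity trend. Between the hormones it went from 1 to 2 under quantile normalization and to 0 with no filter or with only the 2 groups compared, and it ran from 0 to 2 when 1 array was left out, as it did with FGF19 against vehicle (0 to 2). A lone array was then assumed to vary like the other groups. Of the 84 further genes of the 6 lists, those lower with FGF15 numbered 6 with centring, 5 with no trend and 4 to 13 with 1 array left out, against 10. Those lower with FGF19 numbered 4 with centring, 5 with no filter, 4 with no trend and 4 to 10 with 1 array left out, against 9. Between the hormones, those higher numbered 5 with no trend, against 9, and those lower 1 with no trend and 2 to 6 with 1 array left out, against 3. Cyp26a1 differed by 1.98 with FGF15 and by -1.18 between the hormones at an offset of 64, where weak signals count less. The cause of the other changes was not tested.

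Signs also turned for small differences that were not called with all 6 arrays. Of these, 1 passed under any alternative: Rbp4 between the hormones, without FGF19 array 2 (-0.40, adjusted p = 0.00873). With FGF15, Rbp4 was 0.0078 under quantile normalization and 0.021 under centring, Rara 0.064, 0.054 and 0.050 and Rarg 1419415_a_at 0.10, 0.11 and 0.10 under quantile normalization, centring and cyclic loess. Leaving out 1 array gave, with FGF15, -0.22 to 0.091 for Rara, -0.099 to 0.078 for Rarg 1419415_a_at, -0.0056 to 0.060 for Aldh1a1 and -0.030 to 0.12 for Dhrs3. It gave -0.087 to 0.090 for Rarg 1419415_a_at with FGF19 and, between the hormones, -0.40 to 0.0027 for Rbp4, -0.077 to 0.18 for Rarb, -0.032 to 0.055 for Rarg 1419415_a_at and -0.18 to 0.036 for Rarg 1419416_a_at.

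Replicate numbers did not pair the arrays: deviations of same-numbered arrays correlated at 0.082, -0.031 and 0.065. With a replicate block, 0, 0 and 1 of the 8 probe sets were called, as without it, and 7 rather than 9 of the further genes were lower with FGF19. Of 135 called differences of named genes and markers, 73 stayed called under every alternative, and the rest lost the call under some alternative. Of their 2555 alternative values, 2224 stayed called, 331 lost the call and 0 changed direction. These values are not independent, since the alternatives refit the same arrays, and the differences were included because they had been called. With 2 arrays a group and a median standard error of 0.14, differences as small as those of Aldh1a1 or Dhrs3 are at the limit of what could be called.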
